A study of Rattus norvegicus and Mus musculus with 10 samples.

Results

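The cells described here are those that the authors annotated as CD8 Tc, the cytotoxic T cell cluster of the rat data, in every tissue that held at least 20 of them. They numbered 290 in 5 tissues, with 56 in blood, 52 in cerebrospinal fluid (CSF), 114 in dura, 31 in pia and 37 in choroid plexus. Another 13 lay in the central nervous system (CNS), which brought the cluster to 303 of 21187 annotated rat cells. The cells were taken by the deposited cluster name and not by the level of any gene, but the authors' clustering had read every gene, so the genes that define the cluster are a description here.

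All libraries were made from naive Lewis rats, an inbred strain, with no treatment, transgene or deletion in the labels, and the study used 25 rats for 6 tissues. The labels give neither the ages nor how many rats went into a library, and each tissue was 1 library. Blood was represented by mononuclear cells from a density gradient and CSF by unsorted cells. From dura, choroid plexus and CNS, leukocytes were sorted that carried CD45 and had not been reached by a CD45 antibody given into the blood. Dura, pia and choroid plexus are called the border tissues here. The sort list also names a tissue by the abbreviation SDM, which the labels used here do not spell out, and does not name pia by that word. Messenger RNA was counted per cell with unique molecular identifiers (UMIs) in a droplet assay of version 2 chemistry that reads the 3' end of transcripts.

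CD8 T cells recognise peptides on class I molecules of other cells through the T cell receptor, with CD8 as the coreceptor. Activated cells kill through perforin, granzymes and Fas ligand and recruit other leukocytes with chemokines such as CCL3, CCL4, CCL5 and XCL1. The membranes around the brain, the choroid plexus that secretes CSF, and CSF itself hold T cells in health, and some CD8 T cells stay in tissues for long periods without returning to the blood.

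The 26301 rat barcodes averaged 4383.5 per library, against a mean of 4384 cells a tissue stated in the labels, and the annotated ones averaged 3531. CD8 Tc cells of blood held 194206 UMIs in all, those of CSF 121888, of dura 157818, of pia 23409 and of choroid plexus 38002. Their median UMI count per cell was 3339 in blood, 2209 in CSF, 1283 in dura, 699 in pia and 915 in choroid plexus, so the border tissues were the shallow ones. Mitochondrial UMIs made up 3.03% to 4.93% of the total and ribosomal protein UMIs 20.002% to 32.7%. Between 0 and 2 CD8 Tc barcodes of a tissue also occurred in another library. The CSF and blood libraries stood apart. In CSF, 34 genes with at least 20 UMIs per 1000000 (CPM, a gene's UMIs divided by all UMIs of the cells and multiplied by 1000000) lay over 30-fold above every other library, 7 of them ribosomal protein genes, and 24 genes lay more than 10-fold below every other library. In blood, the denominator of most ratios, 23 genes lay more than 10-fold below every other library and none over 30-fold above. Ttr, which encodes transthyretin of the choroid plexus epithelium, stood at 20001 CPM in the whole CSF library and at 3768 CPM in that of choroid plexus. Tissues had no replicate, so no difference below has a replicate check and no test was run. Intervals are exact 95% intervals that cover counting error only. A gene is said to have risen or fallen, or to be called, where its whole interval lay beyond 2-fold in 1 direction, which is a rule of size.

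The label fitted most of the blood, CSF, dural and pial cells and was weaker in choroid plexus. A UMI of Cd3d, Cd3e or Cd3g, the invariant chains of the T cell receptor, was present in 56 of 56 cells in blood, 49 of 52 in CSF, 101 of 114 in dura and 31 of 31 in pia, but in 24 of 37 in choroid plexus. With every cell thinned to 500 UMIs, 64.1% of CD8 Tc cells in blood carried a UMI of Cd8a or Cd8b, the coreceptor chains, and the shares were 44.5% in CSF, 49.9% in dura, 56.1% in pia and 36.0% in choroid plexus. The same share in B cells, which should lack CD8, was 0.699% or less in blood, CSF, dura and pia, and in myeloid cells of the 5 tissues it lay between 0.157% and 5.95%. Unthinned, 55, 43, 84, 22 and 20 cells carried such a UMI in blood, CSF, dura, pia and choroid plexus. Cd4 had no UMI in any CD8 Tc cell of these 5 tissues, but it was also at most 14.98 CPM in the CD4 Tc cluster. Cd40lg, the CD40 ligand of helper T cells, had 1 UMI each in CSF and dura and none in the other tissues.

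The genes that set the cluster apart from all other annotated rat cells included all 5 markers by which it is known. Ranked by fold over the other cells, the leading 10 were Klra22 (30.8-fold), Cd8b (19.5-fold), Ccl1 (17.8-fold), Ly49s6, Gm8369, Cxcr3 (16.4-fold), Ctsw (14.8-fold), Fhl2, Cd8a (13.6-fold) and Lag3 (12.6-fold). Klra22 is a lectin-like receptor of the family best known from natural killer (NK) cells. Ccl1 owed its rank to a single dural cell that held 78 UMIs.

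CD8 Tc cells were most frequent in dura, where they made up 2.30% of annotated cells (114 of 4953, interval 1.90% to 2.76%). The share was 1.77% in blood (1.34% to 2.29%), 1.65% in CSF (1.23% to 2.16%) and 1.63% in choroid plexus (1.15% to 2.24%), and these intervals overlapped each other. Pia had 0.768% (0.522% to 1.09%) and CNS 0.361% (0.192% to 0.617%), with intervals below those of the other 4 tissues. The sort and the gradient bear on these shares, because blood and CSF were not sorted.

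The order changed when only T cells were counted. Of the CD8 Tc and CD4 Tc cells together, CD8 Tc made up 24.2% in choroid plexus (37 of 153, 17.6% to 31.8%), 19.7% in CNS (13 of 66, 10.9% to 31.3%) and 16.2% in dura (114 of 705, 13.5% to 19.1%). In blood the share was 7.04% (56 of 796, 5.36% to 9.04%), in pia 5.89% (31 of 526, 4.04% to 8.26%) and in CSF 3.28% (52 of 1583, 2.46% to 4.29%). CSF was thus close to blood among all annotated cells and had the lowest value among T cells, with an interval that overlapped that of pia. These are shares of the cluster and not of all cells with CD8 transcripts, which the CD4 Tc cluster also held. Without thinning, 17.3% of CD4 Tc cells in blood, 14.4% in CSF and 17.0% in CNS had a Cd8b UMI. The values were 3.72% in dura, 3.64% in pia and 3.45% in choroid plexus, so the order above is that of the cluster only.

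**Figure D1:**
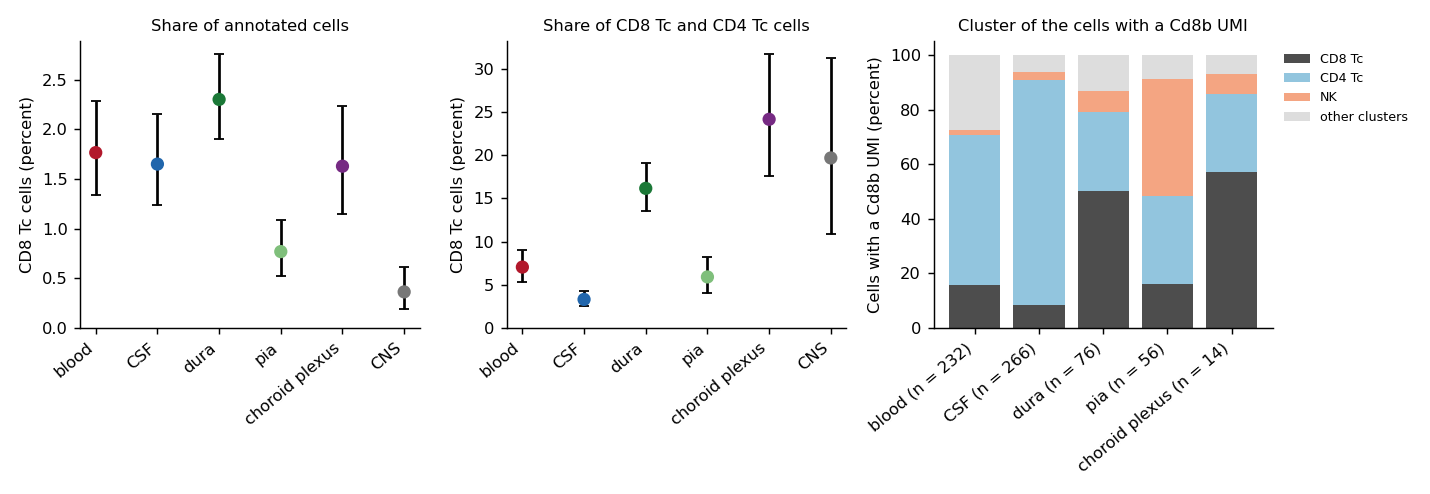
CD8 Tc cells as a percent of all annotated cells (left) and of CD8 Tc plus CD4 Tc cells (middle) of each tissue, as points with exact 95% intervals, and the cluster of every annotated cell with a Cd8b UMI as stacked percent (right, n cells below each bar). Dura leads on the left at 2.30% and choroid plexus in the middle at 24.2%, and on the right most Cd8b cells of CSF (220 of 266) lie in the CD4 Tc cluster.

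The cluster did not hold all cells with Cd8b transcripts, and the part outside it differed between tissues. In blood 36 of the 232 cells with a Cd8b UMI belonged to CD8 Tc (15.5%) and 128 to CD4 Tc, and in CSF 22 of 266 belonged to CD8 Tc (8.27%) and 220 to CD4 Tc. In dura 38 of 76 belonged to CD8 Tc and in choroid plexus 8 of 14, whereas in pia 9 of 56 did and 24 were in the NK cluster. Of pial NK cells 14.6% had a Cd8b UMI, against 2.58% in blood, 2.55% in CSF, 1.68% in dura and 0.322% in choroid plexus. The list of T cell receptor and signalling genes summed to 6546 CPM in pial NK cells, against 4703, 2934, 4414 and 3636 CPM in that order. Whether part of the pial NK cluster were CD8 T cells was not tested. The share of CD4 Tc cells with a Cd8b UMI was 17.3% in blood (14.6% to 20.2%) against 2.88% in the clusters other than T and NK cells, and 14.4% in CSF (12.6% to 16.2%) against 1.31%.

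In blood and CSF these Cd8b cells of the CD4 Tc cluster had less of the effector genes than CD8 Tc. In blood they had Cd8a at 1768 CPM, as high as the 1663 CPM of CD8 Tc. Ccl5 stood at 167 CPM in them against 22208 CPM in CD8 Tc, Nkg7, a protein of cytotoxic granules, at 131 against 2312 CPM, and Ctsw at 773 against 1447 CPM. Lef1, a transcription factor of naive T cells, was at 654 CPM against 139 CPM in CD8 Tc and 610 CPM in the remaining CD4 Tc cells, and Cd40lg at 38.2 CPM against 321 CPM in the remaining CD4 Tc cells. The CSF cells of this kind were alike in direction, with Ccl5 at 196 CPM, Lef1 at 325 CPM and Cd40lg at 13.9 CPM. The few such cells of dura (22) and pia (18) lay nearer to CD8 Tc in some genes, with dural Ctsw at 2069 against 2230 CPM, dural Nkg7 at 974 against 1876 CPM and pial Gzmm at 756 against 726 CPM. The CD8 Tc cluster thus did not hold every cell with CD8 transcripts, and each share above and each comparison below is of the cluster.

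Genes called against blood were few. In dura 65 of 2237 measured genes rose (2.91%) and 52 fell (2.32%). In pia 36 of 1528 rose (2.36%) and 12 fell (0.785%), in choroid plexus 37 of 1597 rose (2.32%) and 14 fell (0.877%), and in CSF 72 of 1943 rose (3.71%) and 112 fell (5.76%). The median log2 ratio of all measured genes was -0.03 in dura, -0.17 in pia, -0.28 in choroid plexus and -0.44 in CSF. The 4 comparisons share the blood cells, so their values are given side by side and their overlap is not counted. A gene could reach the minimum of 20 UMIs over both sides of a ratio through the tissue where it was high alone, so the medians and counts of every list below describe its measured members and not the list. With TMM scaling, which moved the medians to 0.03, -0.52, -0.46 and -0.20 in that order, the split was 22 higher and 27 lower in pia and 30 and 21 in choroid plexus.

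None of the coreceptor genes was called in any tissue. Cd8a stood at 1663 CPM in blood, 976 in CSF, 1122 in dura, 1196 in pia and 789 in choroid plexus, and Cd8b at 525, 279, 399, 470 and 395 CPM in the same order. Cd3g was at 1807, 1247, 2528, 3033 and 1395 CPM. Blood was highest for both coreceptor genes, pia for Cd3g, and none of the 3 genes was called against blood in any tissue.

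Of the 9 listed CD8 T cell markers, 8 were in the file and measured with at least 20 UMIs over both sides, and none was called in any of the 4 comparisons with blood. Ctsw, a cathepsin-like protease of cytotoxic cells, was at 1447 CPM in blood, 1542 in CSF, 2230 in dura, 2136 in pia and 1631 in choroid plexus. Cxcr3, a chemokine receptor of effector T cells, was at 304, 410, 444, 299 and 184 CPM. Lag3, an inhibitory receptor, was highest in blood, at 412 CPM against 197 in CSF, 146 in dura, 42.7 in pia and 78.9 in choroid plexus, where 1 and 3 UMIs underlay the pial and choroid plexus values. Its ratio of dura to blood was -1.50 on the log2 scale (-2.24 to -0.81), an interval that reached inside 2-fold. Trbc2, the constant region of the receptor's beta chain, fell 2.91-fold in CSF, from 2121 to 730 CPM, and was at 1179, 1452 and 947 CPM in dura, pia and choroid plexus.

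None of the measured granule genes rose over blood in any tissue, and the serine proteases Gzmk and Gzma fell. Gzmk stood at 1200 CPM in blood, 287 in CSF, 368 in dura, 85.4 in pia and 368 in choroid plexus. It fell 3.26-fold in dura (58 against 233 UMIs), 4.18-fold in CSF and, on 2 UMIs, 14.0-fold in pia (interval 3.84 to 117), while the choroid plexus ratio of -1.70 (-2.60 to -0.93) was not called. Blood was thus the highest of the 5 tissues for Gzmk, and 28 of its 56 cells had a UMI. Gzma was at 381 CPM in blood, carried by 12 cells, and at 49.2, 25.3, 0 and 52.6 CPM in CSF, dura, pia and choroid plexus. It fell 15.03-fold in dura (5.63 to 56.6), 7.74-fold in CSF and at least 2.97-fold in pia, the last against a floor of 3 UMIs over the group. The pial call was lost without the blood cell that held most Gzma UMIs (log2 ratio -0.93).

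Perforin and the granule membrane protein Nkg7 were not called in any tissue, and granzyme B in 1. Prf1, the pore-forming protein, was at 160, 180.5, 184, 128 and 105 CPM in blood, CSF, dura, pia and choroid plexus. Nkg7 was at 2312, 1879, 1876, 983 and 2053 CPM, and Gzmb at 185, 16.4, 260, 42.7 and 211 CPM. Of the 3 genes Prf1 had the smallest fold between its lowest and highest tissue, and Gzmb was called against blood only in CSF, where it rested on 2 UMIs (11.3-fold lower, 2.91 to 96.9). Without the blood cell richest in Gzmb that call was lost (log2 ratio -2.75). Gzmm, at 3429 CPM in blood and 1600, 1609, 726 and 1974 CPM in the other tissues, fell 4.72-fold in pia (2.93 to 8.16). Of the granule list, 2 of 11 measured members fell in dura, 3 of 10 in pia, 0 of 10 in choroid plexus and 3 of 12 in CSF. The members that fell were Gzma and Gzmk, with Gzmm added in pia and Gzmb in CSF, and the medians were -0.23, -1.40, -0.39 and -0.87.

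Among the chemokine ligands, Ccl4 and Xcl1 rose in all 3 border tissues and Ccl3 in choroid plexus, while Ccl5 lay below its blood level in each without being called. Ccl4, a chemokine that attracts T cells and monocytes, was at 1066 CPM in blood, 345 in CSF, 4119 in dura, 7134 in pia and 7158 in choroid plexus. It rose 3.86-fold in dura, 6.69-fold in pia (5.43 to 8.25) and 6.72-fold in choroid plexus, and fell 3.09-fold in CSF. The order ran CSF, blood, dura and then pia and choroid plexus, of which the last pair had overlapping counting intervals. Xcl1, the ligand of XCR1 on cross-presenting dendritic cells, was at 87.5, 156, 1090, 470 and 1553 CPM and rose 12.5-fold in dura, 5.37-fold in pia and 17.7-fold in choroid plexus (10.2 to 32.5). In dura 86 Xcl1 UMIs lay in the 93 cells with a Ccl5 UMI (667 CPM) and 86 in the 21 cells without (2973 CPM). Ccl3 was at 581.9, 82.0, 1134, 1068 and 1974 CPM, rose 3.39-fold in choroid plexus and fell 7.09-fold in CSF. Ccl5 was the most abundant of these transcripts in all 5 tissues, at 22208, 9837, 15112, 13115 and 17578 CPM, and fell 2.26-fold in CSF. With TMM scaling the CSF ratio of Ccl5 lay within 2-fold and was not called.

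Of the 19 cytokine and chemokine ligands listed, 6 were measured in each comparison with blood. In dura 2 rose, in pia 2 and in choroid plexus 3, with none falling, and in CSF none rose and 3 fell. Their medians were 0.20, 0.38, 0.71 and -1.06. Faslg, the Fas ligand, was outside the list and was named for its dura over choroid plexus ratio. It stood at 77.2, 41.0, 545, 384.5 and 158 CPM and rose 7.06-fold in dura, where 58 of 114 cells had a UMI. Ifng, the cytokine interferon gamma, had 1, 1, 12, 0 and 2 UMIs and could not be compared, and Tnf had none in any of the 5 tissues.

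Of the genes linked with tissue retention, few could be measured, and Rgs1, a regulator that dampens chemokine receptor signalling, rose in all 3 border tissues. Rgs1 was at 46.3 CPM in blood and 32.8 in CSF, and at 2173 in dura, 2008 in pia and 2605 in choroid plexus. It rose 46.9-fold in dura (24.4 to 103), 43.3-fold in pia (21.0 to 101) and 56.2-fold in choroid plexus (28.4 to 127), and the CSF ratio to blood rested on too few UMIs to be measured. The border tissues stood together, far above blood and CSF, and the intervals of dura over pia and of dura over choroid plexus lay within 2-fold. In single cells, Rgs1 was detected in 7 of 56 cells in blood, 4 of 52 in CSF, 87 of 114 in dura, 19 of 31 in pia and 26 of 37 in choroid plexus.

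Rgs1 was not particular to T cells in those tissues. At 500 UMIs a cell, 57.9% of dural CD8 Tc cells carried an Rgs1 UMI (48.3% to 67.1%, median 1283 UMIs), against 4.69% of dural B cells (median 1024) and 39.9% of dural myeloid cells. In pia the share was 50.04%, against 28.5% of B cells and 41.0% of myeloid cells, and in choroid plexus 53.9%, against 60.3% of myeloid cells. The dural share thus lay above that of B cells beyond counting error, while the choroid plexus share was not above that of myeloid cells, and how much of it came from free RNA was not tested.

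Among the other listed residency genes, Rgs2 was at 10.3, 32.8, 393, 513 and 632 CPM in blood, CSF, dura, pia and choroid plexus. It rose 38.1-fold in dura (10.1 to 322) and 61.3-fold in choroid plexus (15.2 to 535), both over 2 UMIs in blood. Cd69, a surface protein that holds cells in tissue by binding the S1P receptor, was at 144, 24.6, 266, 470 and 237 CPM and was called in none of them, with a pia ratio of 1.70 (0.55 to 2.76). Itgae, the CD103 integrin chain that is a usual residency marker, had 6, 4, 13, 1 and 2 UMIs, Itga1 2, 2, 5, 2 and 1, and Cxcr6 4, 3, 11, 0 and 2. These classical markers were too sparse for a ratio. Of 21 residency genes in the file, 6 were measured in dura and 4 of them rose (Rgs1, Rgs2, Nr4a1 and Nr4a2, median 4.00), 2 were measured in pia and 1 rose, 3 were measured in choroid plexus and 2 rose (median 5.81), and 1 was measured in CSF and was not called. Rgs2 and Nr4a2, with 2 and 1 UMIs in blood, were measured only because they were high in the tissue and had to differ.

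Receptors that guide migration were partly higher in dura. Cxcr4, the receptor of CXCL12, was at 10.3, 8.20, 393, 384.5 and 395 CPM and rose 38.1-fold in dura over 2 UMIs in blood (10.1 to 322). Its thinned share was 18.5% in dural CD8 Tc and 16.02% in dural B cells, and the intervals of both shares overlapped. Gpr183, which senses oxysterols, rose 8.20-fold in dura, on 20 against 3 UMIs. Of 18 listed receptors, 3 of 7 measured rose in dura and none of 3, 2 and 2 was called in pia, choroid plexus and CSF. S1pr1, the egress receptor that binds S1P, stood at 77.2 CPM in blood, 8.20 in CSF, 127 in dura, 299 in pia and 78.9 in choroid plexus. No border tissue had a lower CPM than blood, but these values rested on few UMIs, fewest in CSF and choroid plexus.

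**Figure D2:**
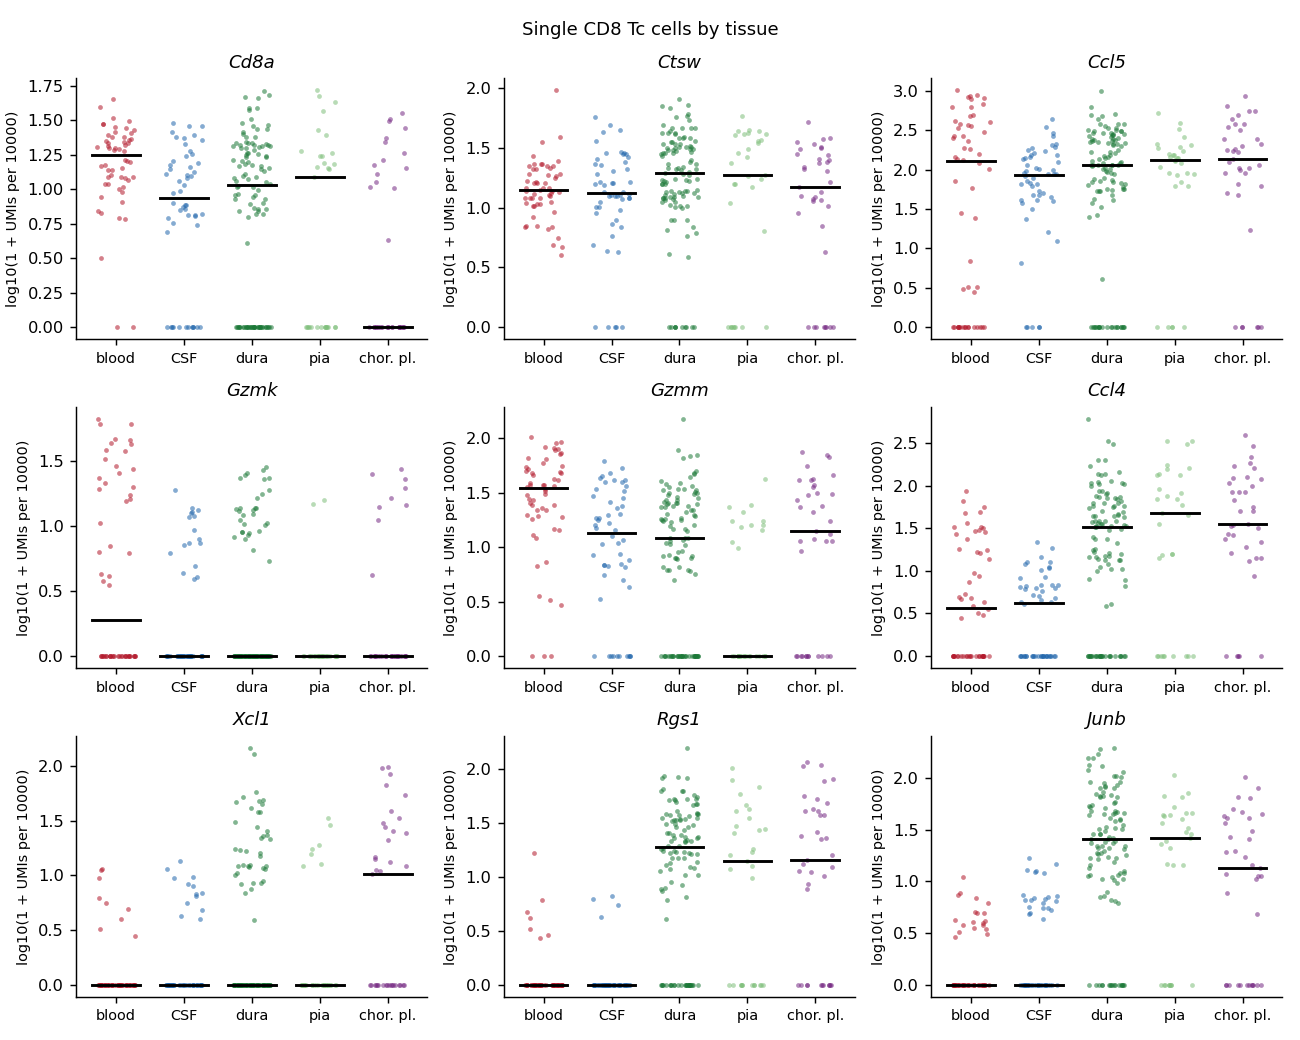
Every CD8 Tc cell as a point, by tissue, for 9 genes, on the scale log10 of 1 plus UMIs per 10000 UMIs of the cell, with a black bar at the median cell. Rgs1 and Junb have a median at 0 in blood and CSF and above it in dura, pia and choroid plexus, while Gzmk was detected in 28 of 56 blood cells and 2 of 31 pial cells and 17 blood cells lie at 0 for Ccl5.

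Of the activation genes downstream of the T cell receptor, 3 of 8 measured rose in dura, 2 of 5 in pia and none of 4 in choroid plexus or CSF, of 19 listed. Nfkbia, the NF-kappa-B inhibitor induced by that pathway, was at 160 CPM in blood, 107 in CSF, 1616 in dura, 1538 in pia and 368 in choroid plexus, and rose 10.1-fold in dura and 9.63-fold in pia. Nr4a1, an early gene of receptor signalling, rose 7.38-fold in dura (228 against 30.9 CPM), and Nr4a2 was at 177 CPM there against 5.15 CPM, or 1 UMI, in blood. The medians of the measured members were 1.44 in dura, 1.70 in pia, 0.68 in choroid plexus and -0.55 in CSF, and Nr4a1 and Nr4a2 reached the minimum of UMIs through dura. Icos, a costimulatory receptor, rose 8.30-fold in pia (427 against 51.5 CPM), and Cd96, a receptor of nectin-like ligands, rose 6.46-fold in dura and 6.22-fold in pia. Pdcd1, which encodes PD-1, had 1 to 4 UMIs in every one of the 5 tissues.

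Immediate early genes, which respond to handling of tissue as well as to stimulation, rose in part. Junb was at 134 CPM in blood, 254 in CSF, 3415 in dura, 2691 in pia and 1947 in choroid plexus, and rose 25.5-fold (17.2 to 39.4), 20.1-fold and 14.5-fold in the border tissues. Of the list of dissociation stress and immediate early genes, 7 of 14 measured rose in dura (median 1.76), 4 of 10 in pia (0.42) and 9 of 13 in choroid plexus (2.68), while in CSF Jund and Hspa8 rose and Hspe1 fell among 12 (-0.53). Choroid plexus was the highest for Fos, at 1210 CPM against 97.8, 57.4, 209 and 42.7 in blood, CSF, dura and pia, and for Fosb and Jund, at 1184 and 1605 CPM. Dura and choroid plexus were sorted and blood and CSF were not, so tissue and preparation cannot be told apart for these genes, nor for Rgs1, Nfkbia and the chemokines.

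Of the genes of naive and recirculating T cells, Lef1 and Klf3 fell in dura. Lef1 was at 139 CPM in blood (27 UMIs in 14 cells), 41.0 in CSF, 0 in dura and pia and 26.3 in choroid plexus, and fell at least 7.31-fold in dura against a floor of 3 UMIs over the group. Klf3, a factor of quiescent lymphocytes, was at 144, 115, 12.7, 42.7 and 0 CPM and fell 11.4-fold in dura on 2 UMIs (2.87 to 98.6). Ccr7 had none in any of the 5 tissues and Tcf7 1 in all, in CSF, so the cluster held few transcripts of naive cells even in blood. Of 5 measured members 2 fell in dura (median -1.09), and 0 of 5, 4 and 5 were called in pia, choroid plexus and CSF (medians -1.25, -1.78 and -0.72).

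Several genes outside the naive list were also highest in blood. Lgals1, the galectin of effector T cells, was at 1591 CPM in blood, 591 in CSF, 146 in dura, 470 in pia and 447 in choroid plexus. It fell 10.9-fold in dura (7.14 to 17.5), 3.56-fold in choroid plexus and 2.69-fold in CSF. Hopx, a cofactor expressed in effector and memory T cells, was at 968, 312, 291.5, 171 and 132 CPM and fell in all 4 tissues, by 3.11-fold in CSF, 3.32-fold in dura, 5.67-fold in pia and 7.36-fold in choroid plexus. Itgb2, the beta chain of LFA-1, fell 5.12-fold in dura (324 to 63.4 CPM). Blood stood above the other tissues for each of these 3 genes. Without the blood cell richest in Hopx, the calls in pia (4 UMIs) and CSF were lost, at log2 ratios of -2.35 and -1.49. With only cells that had a Cd3 UMI, the choroid plexus Lgals1 ratio was not called.

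NK receptors on the cells were mixed. Klra22 was at 505 CPM in blood, where 21 of 56 cells had a UMI, and at 131, 101, 171 and 158 CPM in CSF, dura, pia and choroid plexus, and fell 4.98-fold in dura and 3.84-fold in CSF. Klrd1, which encodes CD94, was at 865, 714, 1141, 1837 and 1816 CPM and was not called in any of the 4 comparisons. Klrk1, which encodes the activating receptor NKG2D, was at 154, 131, 177, 214 and 211 CPM. Of 20 NK receptors in the file, 1 of 8 measured fell in dura and 1 of 6 in CSF, both times Klra22, and none of 6 was called in pia or choroid plexus.

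Few genes of the remaining lists were called. Of the type I interferon response, 6 of 6 measured genes in dura were under their blood level (median -1.21), as were 5 of 6 in pia (-1.03), 4 of 6 in choroid plexus (-1.21) and 6 of 6 in CSF (-0.96), but only Isg15, a ubiquitin-like protein, was called, falling 5.82-fold in dura from 221 to 38.02 CPM. Glycolysis genes lay below blood in all 7 measured in dura, pia and choroid plexus, with medians of -0.45, -0.77 and -0.83 and 0 called. Survival genes had medians of -0.58, -0.98, -0.84 and -0.88 in dura, pia, choroid plexus and CSF with 0 called, and class I presentation genes -0.20, -0.50, -0.33 and -0.62 with 1 fall each, Psmb10 of the immunoproteasome in pia, on 1 UMI and lost without the blood cell richest in it (log2 ratio -3.49), and RT1-CE5 in CSF. Of the cell cycle list, Pcna, the sliding clamp of DNA synthesis, rose in dura to 336 CPM from 66.9, while 6 of 114 dural cells had a UMI of Mki67 or Top2a.

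Some calls against blood were lost without 1 cell. Without the cell that held most of a gene's UMIs, Jun (log2 ratio 1.59) and Isg15 (-2.19) were no longer called in dura. The same held for Jun (2.13), Xcl1 (2.18), Fcer1g (1.49) and Cd96 (2.31) in pia and for Ccl4 (-1.43) and Lgals1 (-1.36) in CSF. Rgs1, Junb and Nfkbia kept their calls in dura and pia without their richest cell.

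**Figure D3:**
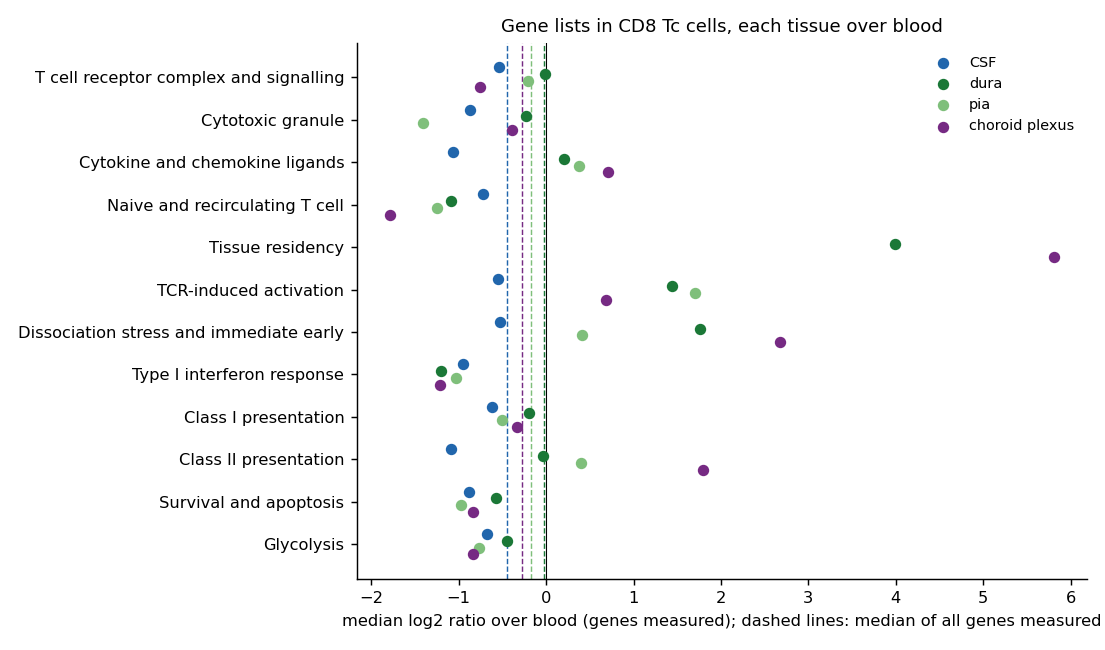
Median log2 ratio of each gene list in CD8 Tc cells over blood, 1 point a tissue (points need 3 measured genes), with dashed lines at the median of all measured genes of that tissue. Points stand for the measured members only, several of which were measured because they were high in 1 tissue. The activation point lies at 1.44 in dura and the naive and interferon points at -1.09 and -1.21.

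Class II genes rose in the choroid plexus cells, but through 1 cell. Cd74, the invariant chain, was at 752, 353, 735, 940 and 3579 CPM in blood, CSF, dura, pia and choroid plexus, and RT1-Db1, a class II beta chain, at 252, 131, 387, 427 and 1421 CPM. In choroid plexus 104 of 136 Cd74 UMIs, 48 of 54 RT1-Db1 UMIs and 58 of 94 UMIs of Cst3, a protease inhibitor of dendritic cells and macrophages, lay in a single cell. Without the richest cell of each gene the ratios to blood were 0.29 for Cd74 and -0.55 for RT1-Db1, against 2.25 and 2.49 with it. The list median turned from 1.80 to -0.17, and to -0.56 without barcodes called doublets, so the rise in choroid plexus rested on 1 cell.

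Transcripts of other cell types were present at low levels and differed between tissues. The 12 macrophage markers summed to 561 CPM in blood, 919 in CSF, 2186 in dura, 2349.5 in pia and 1868 in choroid plexus, with 6, 8, 11, 10 and 8 of them detected. Apoe, the most abundant of them in dura and pia, was at 0 CPM in blood and 345, 1223, 854 and 421 CPM elsewhere, and 48.1% of thinned dural CD8 Tc cells had a UMI against 52.2% of dural B cells. That share is at the level of cells that should lack the gene, and it is not read as expression. B cell markers summed to 144, 8.20, 31.7, 0 and 26.3 CPM. Cells with at least 2 UMIs of B cell markers or 5 of macrophage markers numbered 3, 5, 18, 3 and 2, and without them the counts of genes called in the 8 comparisons stayed within 1.5-fold of those given.

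NK cell transcripts bear on the choroid plexus cells most. The 13 NK markers in the file summed to 1581 CPM in blood, 1387 in CSF, 2047 in dura, 1581 in pia and 4395 in choroid plexus. Tyrobp, the DAP12 signalling adaptor, was at 160, 476, 684, 171 and 2710 CPM and rose 4.29-fold in dura and 17.0-fold in choroid plexus (11.3 to 26.3). Fcer1g, a second adaptor of NK and myeloid receptors, rose 3.46-fold, 4.93-fold and 4.95-fold in dura, pia and choroid plexus. These adaptors were unevenly spread over the cells of the cluster.

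In dura 13 of 114 cells had no Cd3 UMI, and their transcripts were set beside those of the other 101. These groups were chosen after the values were seen, and their median depth was 990 and 1338 UMIs. Tyrobp was at 3982 CPM in the 13 (62 UMIs) and at 323 CPM in the 101 (46 UMIs), and Fcer1g at 2505 and 359 CPM. Ccl5 had 0 UMIs in the 13 against 2385, Cd8b 0 against 63, and Cd8a 1 against 176. Gzmk was at 0 against 58 UMIs and Cxcr3 at 1 against 69, whereas Gzmm stood at 2376 CPM in the 13 and 1526 in the 101, Xcl1 at 2312 and 956 CPM and Rgs1 at 1734 and 2221 CPM. The 13 cells thus carried granule and adaptor transcripts with almost none of the coreceptor. Split by Ccl5, also after the values were seen, the 21 dural cells without it had 73 Tyrobp UMIs, 1 Cd8b UMI and Xcl1 at 2973 CPM. The 93 with it had 35 Tyrobp UMIs, 62 Cd8b UMIs and Xcl1 at 667 CPM.

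In choroid plexus the 13 cells without a Cd3 UMI, of 37, had Tyrobp at 7701 CPM (83 UMIs) against 735 CPM in the 24 with one, but they did carry Ccl5, at 24123 against 14987 CPM. With only the cells that had a Cd3 UMI, Tyrobp was no longer called between dura and choroid plexus (log2 ratio -1.18, from -1.99), and the choroid plexus Gzmk ratio to blood was -2.22 and called. In that subset, added after seeing the data, 30 of 1535 measured genes rose and 4 fell in choroid plexus over blood. Over all 37 cells, 37 of 1597 rose and 14 fell. Of the genes called in the subset, 31 were among the 51 called over all cells. The subset also held fewer cells, and the part of NK-like cells in the other values was not tested.

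Blood CD8 Tc cells fell into a larger group with Ccl5 and a smaller one without. Ccl5 was detected in 39 of 56 cells, and the median depth was 3498 UMIs with it and 3141 without. All 188 Hopx UMIs and 228 of 233 Gzmk UMIs lay in the 39 cells, and Lgals1 was at 1962 CPM in them and 701 CPM in the 17 others. Klra22 was higher in the 17, at 1226 against 204 CPM, as was Lef1, at 298 against 72.9 CPM. Nkg7 was at 2771 CPM in the 39 and 1209 CPM in the 17, and Cd8b at 627 and 280 CPM, whereas Cd8a was at 1604 and 1804 CPM and Gzmm at 3391 and 3521 CPM. The split was chosen after the values were seen and is a description.

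**Figure D4:**
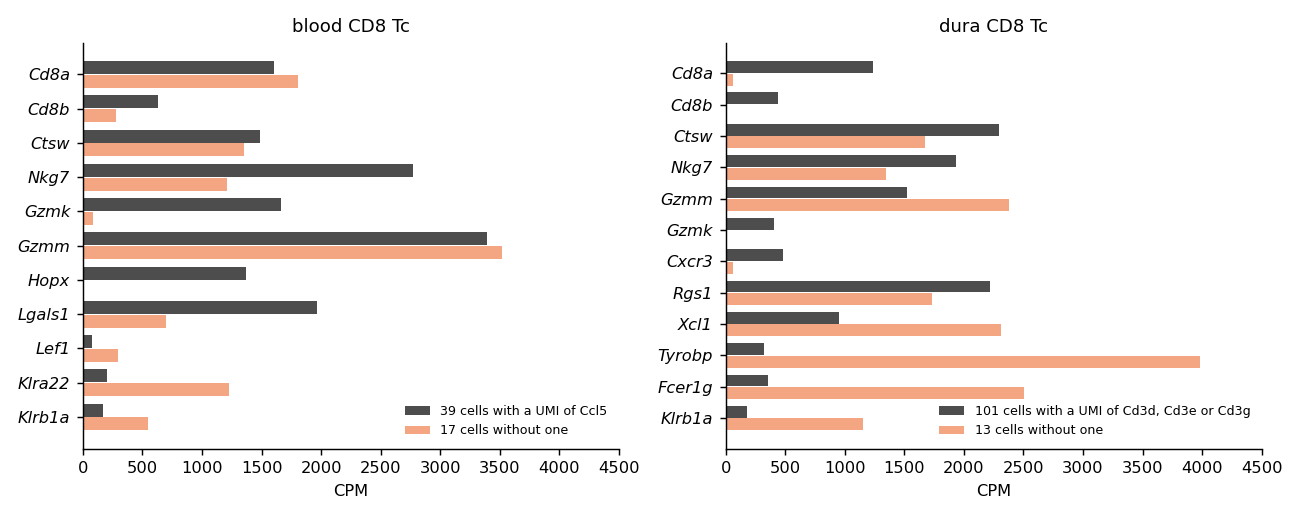
CPM of single genes in blood CD8 Tc cells with and without a Ccl5 UMI (left, 39 and 17 cells) and in dural CD8 Tc cells with and without a Cd3d, Cd3e or Cd3g UMI (right, 101 and 13 cells). On the left Gzmk and Hopx lie almost wholly in the cells with Ccl5, and Klra22 is higher in those without (1226 against 204 CPM). On the right Tyrobp reaches 3982 CPM in the cells without Cd3, which have no Cd8b UMI.

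In CSF the genes that were high in the border tissues were low. Rgs1, Rgs2 and Cxcr4 had 4, 4 and 1 UMIs in 52 cells, and Junb was at 254 CPM against 134 in blood, a log2 ratio of 0.93 (0.13 to 1.74) that was not called. The genes that fell included effector genes, Ccl3, Ccl4, Ccl5, Gzmk, Gzma, Hopx and Lgals1. With TMM scaling 96 genes fell in CSF over blood in place of 112, and the fall of Ccl5 was not called. The genes that rose were led by Ttr, at 23079 CPM and at least 1494-fold above blood, and included S100b, Mt3, Apoe and Mbp, transcripts of choroid plexus, glia and macrophages.

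These CSF values share traits with the whole library. Ttr was found in 99.7% of thinned CSF CD8 Tc cells and in 99.9% of CSF B cells and 99.2% of CSF myeloid cells, so it is read as background RNA. The choroid plexus epithelium list summed to 23300 CPM in the CSF CD8 Tc cells and 0 CPM in those of blood. S100a9 had 65 UMIs, 63 of them in 1 cell. Hspa8, Ppia, Ppial4d, Hba-a2 and RT1-CE5 have near-identical copies, and several of them stood apart in the whole CSF library (Hspa8 550 CPM against 7.38 CPM or less in the other libraries), so their values are uncertain. Without the genes that stood apart in 1 library, 54 genes rose and 100 fell in CSF over blood.

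Set against CSF in place of blood, dura and pia were again higher in Rgs1, Ccl4 and Junb. In dura over CSF 119 of 1755 genes rose (6.78%) and 63 fell (3.59%), and in pia over CSF 38 of 856 rose (4.44%) and 30 fell (3.5%), and the comparisons share the CSF cells. Rgs1 was 66.2-fold above CSF in dura (25.6 to 244) and 61.2-fold in pia (22.4 to 234). Ccl4 was 11.95-fold and 20.7-fold above, Ccl3 13.8-fold and 13.0-fold, Junb 13.4-fold and 10.6-fold, and Nfkbia 15.1-fold and 14.4-fold. Gzmb was 15.8-fold above CSF in dura, on 41 against 2 UMIs, and Lgals1 was 4.05-fold below. Cd69 rose 10.8-fold in dura over CSF, on 42 against 3 UMIs, and S1pr1 was at 20 against 1 UMI.

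Few genes were called between dura and pia. In dura over pia 1 of 1313 genes rose (0.0762%) and 12 fell (0.914%). The gene that rose was Ccl1, whose 78 UMIs lay in 1 cell, and no member of the gene lists was called. Rgs1 had a log2 ratio of 0.11 (-0.33 to 0.59), Junb 0.34 (-0.03 to 0.74) and Nfkbia 0.07 (-0.44 to 0.62), with every interval within 2-fold. Gzmm lay higher in dura, at 1.15 (0.44 to 1.95), and Lgals1 lower, at -1.69 (-2.78 to -0.50), without being called.

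Dura and choroid plexus differed in the early genes. In dura over choroid plexus 3 of 1374 genes rose (0.218%), Ccl1, Nfkbia and Crem, and 13 fell (0.946%). Nfkbia was 4.39-fold above choroid plexus (2.57 to 8.14) and Crem, a cAMP-responsive transcription factor, 5.90-fold (2.23 to 22.1), on 98 against 4 UMIs. Both calls were lost in cells with a Cd3 UMI (log2 ratios 1.77 and 2.49). Fos was 5.79-fold lower in dura, Fosb 4.67-fold, Jun 3.68-fold and Jund 3.38-fold, while Junb was higher in dura (0.81, 0.46 to 1.18) without being called. Fos and Jund were not called with Cd3 cells alone (-1.85 and -1.47), nor Jun with TMM scaling (-1.64). Ttr, Cd74, RT1-Db1, Cst3 and Tyrobp were also lower in dura, the 3 presentation genes through the choroid plexus cell named above.

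Beside CD4 Tc and NK cells of the same libraries, Rgs1 and Junb rose in all 3 clusters. In dura over blood, Rgs1 had log2 ratios of 5.55 in CD8 Tc, 5.98 in CD4 Tc and 4.24 in NK cells, Junb 4.67, 3.46 and 3.17, and Nfkbia 3.34, 3.79 and 3.59. Xcl1 rose in all 3 as well, by 3.64, 5.16 and 2.96. All of these were called in each cluster. The clusters were defined on these genes and share the libraries, so the values are side by side and their differences were not tested.

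Other genes were called in CD8 Tc and in 1 of the other clusters. Ccl4 had dural log2 ratios of 1.95 in CD8 Tc and 3.69 in CD4 Tc, both called, and 0.36 in NK cells. Hopx and Lgals1 had -1.73 and -3.45 in CD8 Tc and -2.30 and -3.13 in NK cells, called in both clusters, but 0.75 and -0.58 in CD4 Tc, not called. Gzmk had -1.71 in CD8 Tc, -1.30 in CD4 Tc and -2.39 in NK cells, and Gzma -3.91, -3.75 and -6.35. In CSF over blood, Gzmk had -2.06, -2.32 and -2.28, called in each cluster, so the lower Gzmk outside blood was measured in the CSF cells of all 3.

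**Figure D5:**
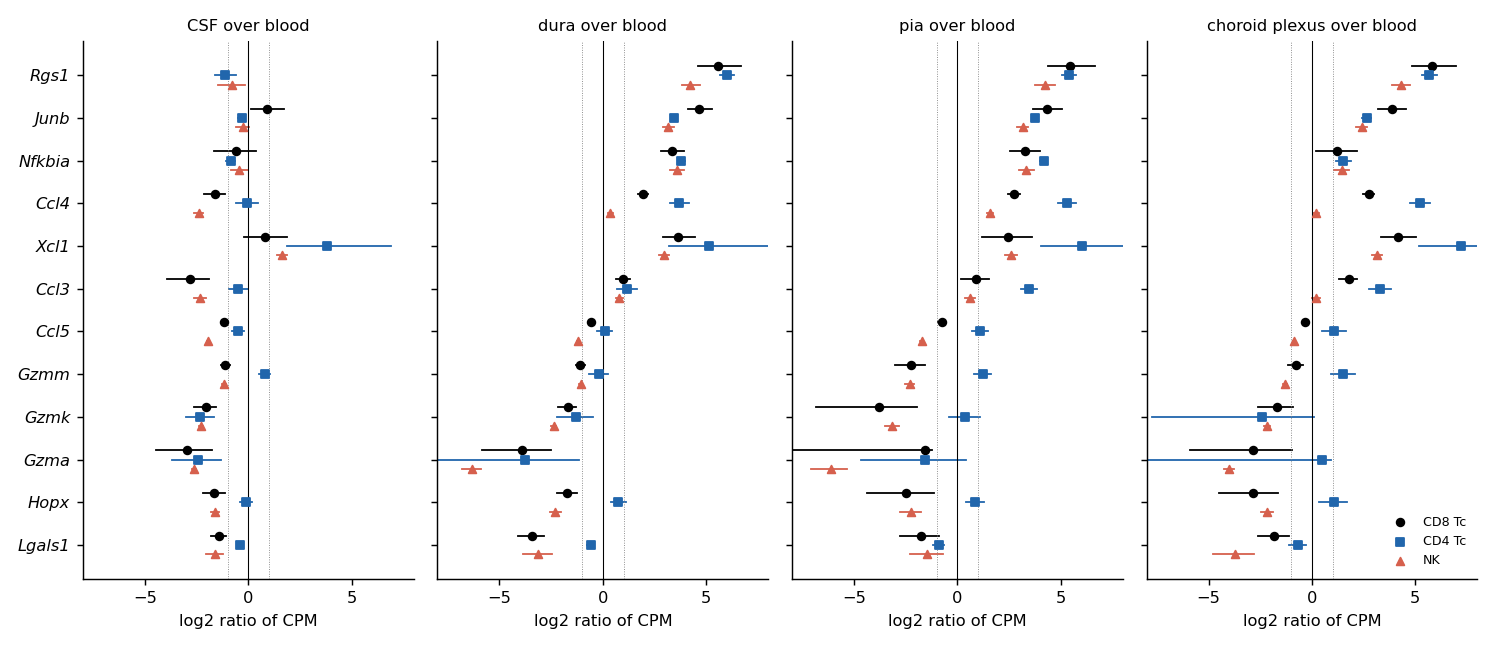
Log2 ratio of CPM over blood for 12 genes in CD8 Tc, CD4 Tc and NK cells, 1 panel a tissue, with exact 95% intervals (bars running past the axis are cut) and dotted lines at 2-fold. Rgs1 and Junb lie to the right in the 3 border tissues for every cluster, while Hopx lies to the left for CD8 Tc (-1.73 in dura) and NK cells (-2.30) and at 0.75 for CD4 Tc in dura.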

How the data were processed

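Single cells of 6 rat tissues were read as the authors' deposited UMI counts per gene (32883 genes), unnormalized, with tissue and cluster from the authors' annotation. Cell Ranger 3.1.0 is named in the submitters' processing notes, and the rat matrix names version 3.0.2, per the file headers. The aligner settings are not given in the sources used here. Columns of no sample numbered 0. The cluster, the 34 gene lists (454 genes, 431 in the file) and the comparisons were chosen with earlier results of these data known.

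UMIs of the CD8 Tc cells were summed per tissue and scaled to CPM, and the ratio of 2 tissues was given with an exact conditional binomial 95% interval for genes with at least 20 UMIs over both sides. A side with 0 UMIs was set to a floor of 3 UMIs over the group. Shares carry Clopper-Pearson intervals, and shares of cells with a UMI were computed at 500 UMIs a cell, leaving out shallower ones (3 in pia and 2 in choroid plexus). Totals ranged from 23409 to 194206 UMIs a tissue, so the pial values are the least precise. No cell was removed. Scrublet (scanpy 1.11.5) marked 1 CD8 Tc barcode each in blood, CSF and choroid plexus as doublets, and 1.73%, 1.55%, 1.41% and 0.572% of the blood, CSF, dural and choroid plexus barcodes. It marked too few in pia (0.0990%) and CNS (0) to have worked. Genes named are members of the lists, the 10 genes in each direction with the largest nearer bound of the interval, and the 5 cluster markers. For 5 listed symbols with several rows, the row with most UMIs was used. Analyses ran in Python 3.11.15 with scipy 1.17.1 and were tested on simulated data. Alternatives were TMM scaling (edgeR 4.0.16), other UMI minimums, thinning, equal weight of cells and subsets of cells, with 5 added after seeing the data. Some list members are not reported here but stay in the counts and medians of their lists.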

Additional observations from a re-analysis of the deposited data

Results flagged for a closer look

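S100a9, an alarmin of neutrophils, moved in opposite directions in CD8 Tc and NK cells between dura and CSF. Its log2 ratio of dura over CSF was -2.81 in CD8 Tc (12 against 65 UMIs) and 2.69 in NK cells (41 against 9 UMIs), each beyond 2-fold, and 63 of the 65 CSF UMIs of CD8 Tc lay in 1 cell. Without that cell the log2 ratio of CD8 Tc was 2.16. The difference between the clusters was not tested.

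Barcodes that the authors left without an annotation also held Cd8b. In blood 5 of 115 such barcodes had a Cd8b UMI (4.35%, 1.43% to 9.85%), all 5 with a Cd3 UMI. Among annotated blood cells of other types, 6.00% of myeloid cells and 0.487% of B cells had one, at median depths of 2325 and 1482 UMIs against 970 in the barcodes without an annotation. In CSF 28 of 4348 had one (0.644%, 0.428% to 0.929%), 17 of them with a Cd3 UMI, against 1.55% of CSF myeloid cells and 0.690% of CSF B cells, at 1263 UMIs against 1674 and 1130.5. The CSF share was no higher than in either cell type, and the blood share lay between those of B and myeloid cells. The CSF barcodes with Cd8b had a median of 1936.5 UMIs, against 1263 in all CSF barcodes without an annotation. Whether they were T cells or held background RNA was not tested. In CNS 4 of 48 had one (8.33%, 2.32% to 19.98%), at a median of 10189 UMIs and 1 with a Cd3 UMI, against 0.204% of CNS myeloid cells at a median of 2714 UMIs. In pia 3 of 279 had one, none with a Cd3 UMI. In dura 0 of 241 and in choroid plexus 0 of 83 did, and the exact intervals reach up to 1.52% and 4.35%.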

How the results depend on the processing

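The shares of CD8 Tc depended on the denominator. Of T cells they were 7.04% in blood, 3.28% in CSF, 16.2% in dura, 5.89% in pia, 24.2% in choroid plexus and 19.7% in CNS. Of T and NK cells, a denominator added after seeing the data, they were 5.89%, 2.80%, 10.7%, 4.49%, 7.97% and 10.5% in that order. Of all CSF barcodes the share was 0.693%.

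Counts of genes beyond 2-fold followed the number of UMIs. With each cell thinned to 500 UMIs, 46 genes were beyond 2-fold in CSF over blood (184 as reported), 33 in dura (117), 18 in pia (48), 19 in choroid plexus (51), 8 in dura over pia (13), 9 in dura over choroid plexus (16), 74 in dura over CSF (182) and 40 in pia over CSF (68). Of these, 43, 31, 16, 18, 7, 8, 70 and 39 in that order were among the genes reported. With at least 50 UMIs the counts were 104 in CSF over blood, 61 in dura over blood and 111 in dura over CSF. With no minimum they were 176 in dura and 89 in choroid plexus over blood, 21 in dura over pia and 142 in pia over CSF. With only cells that had Cd8a or Cd8b they were 31 in choroid plexus over blood, 8 in dura over pia and 10 in dura over choroid plexus. Added after seeing the data, only cells with Cd3 gave 8 in dura over choroid plexus, and leaving out the richest cell of each gene gave 33 in choroid plexus over blood. The other counts stayed within 1.5-fold of those reported. Cells weighted equally give no calls.

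TMM scaling moved the share of higher calls from 75% to 44.9% in pia over blood, 72.5% to 58.8% in choroid plexus over blood, 7.69% to 55.6% in dura over pia, 18.8% to 50% in dura over choroid plexus and 55.9% to 30.4% in pia over CSF. Thinning gave 69.6% in CSF over blood and 84.8% in dura over blood.

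Reversals touched class II genes and Cst3 in choroid plexus and S100a9 in dura over CSF, which went from -2.81 to 2.16 without its richest cell. The class II list median over blood (1.80) was -0.56 without doublets, -0.32 without cells with B cell or macrophage markers and -0.17 without the richest cell. In dura over choroid plexus (-1.37) it was 0.97, 0.99 and 0.68, RT1-Db1 was 1.17, 0.99 and 1.17, and Cst3 was 0.0846 without cells with such markers. For the class II genes 1 choroid plexus cell held most of the UMIs.

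No paired analysis was possible because each tissue is 1 library and the result comes from no test. Depth limits the pia and choroid plexus values most, and sparse genes such as Itgae, Cxcr6 and Ifng could not be compared. Differences between rats were not tested.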

Other observations

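The CNS held 13 CD8 Tc cells, too few for the comparisons above, at a median of 2552 UMIs. Cd8a stood at 1231 CPM in them, Ccl5 at 8152, Ccl4 at 7512, Rgs1 at 1084 and Gzmk at 616 CPM. Of the 305 Ccl4 UMIs, 117 lay in 1 cell (38.4%). Macrophage markers summed to 2340 CPM, and 9 of the 13 cells had at least 5 UMIs of them, whose part in these levels was not tested. The proliferation genes, which include Mki67 and Top2a of dividing cells, summed to 4113 CPM in CNS, against 510 CPM in blood, 550 in CSF, 735 in dura, 513 in pia and 632 in choroid plexus. Of the 167 UMIs in CNS, 157 lay in 2 cells, and 2 cells had a UMI of Mki67 or Top2a.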
